A study of Mus musculus with 6 samples.

Results

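The genes described here are 9 genes of growth arrest: the family members Gadd45a, Gadd45b and Gadd45g, the kinase inhibitor gene Cdkn1a (p21), the p53-linked genes Mdm2, Ccng1 and Trp53inp1, and the cyclin and transcription factor genes Ccnd1 and Myc. They were chosen by name, with earlier results of these data known, and are 9 of the 23412 gene symbols in the count table. All 9 were among the 12626 genes tested. RNA was sequenced from whole liver of C57BL/6J mice labelled as 8 weeks of age, all given a diet rich in fat for 4 weeks. Over the last 3 days the 3 libraries of group HFD_Lira3d came from mice given liraglutide at 300 µg/kg under the skin, and the 3 libraries of group HFD_PBS3d came from mice given phosphate-buffered saline (PBS). Liraglutide activates the GLP-1 receptor and is known to lower food intake. Food intake was not analysed here, so its part in any difference and the drug's other actions cannot be told apart. Libraries are called Lira161, Lira162, Lira164, PBS155, PBS157 and PBS158 after their columns. The labels call them triplicates and do not state whether each is its own mouse, so the p-values rest on library-to-library spread that could be technical.

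Gadd45 proteins are small nuclear proteins without enzyme activity that bind partners such as PCNA, the CDK1-cyclin B complex and the kinase MAP3K4, which feeds the p38 and JNK kinases. Their genes respond to stress signals, and Gadd45b and Gadd45g are also known in liver as early genes of regeneration and of nuclear receptor activation. p21 blocks cyclin-dependent kinases and is the classic target of p53, whose own level is held down by the ubiquitin ligase MDM2, itself encoded by a p53 target. Cyclin D1 and MYC act the other way, as drivers of entry into the cell cycle.

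The 250 bases before the RefSeq start sites of 4 of these genes (GRCm38.p6) are shown because they belong to the Gadd45 family, whose members are compared with each other here, and to Cdkn1a, the textbook p53 target. Capitals mark the E-box CACGTG, a motif bound by MYC and its relatives, in Gadd45b and Gadd45g. In Gadd45a and Cdkn1a they mark exact matches to the decamer of which p53 binds a pair. Near matches, such as tgacatgttc right after GAACATGTCT in Cdkn1a, stay in lower case. For Cdkn1a the upstream of its start sites is shown. Each sequence runs 5′ to 3′ on the strand of the gene, from chr10:80929841-80930090 (plus strand), chr13:51846425-51846674 (plus), chr6:67037408-67037657 (minus) and chr17:29090729-29090978 (plus).
Gadd45b: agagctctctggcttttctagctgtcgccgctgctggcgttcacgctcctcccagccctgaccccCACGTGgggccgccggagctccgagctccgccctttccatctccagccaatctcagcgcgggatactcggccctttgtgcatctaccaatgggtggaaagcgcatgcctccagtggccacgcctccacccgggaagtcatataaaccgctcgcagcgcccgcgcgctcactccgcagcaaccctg
Gadd45g: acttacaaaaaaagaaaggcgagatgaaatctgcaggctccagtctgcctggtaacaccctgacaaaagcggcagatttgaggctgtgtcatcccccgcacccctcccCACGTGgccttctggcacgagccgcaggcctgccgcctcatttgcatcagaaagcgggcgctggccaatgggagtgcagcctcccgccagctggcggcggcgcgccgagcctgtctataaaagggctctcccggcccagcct
Gadd45a: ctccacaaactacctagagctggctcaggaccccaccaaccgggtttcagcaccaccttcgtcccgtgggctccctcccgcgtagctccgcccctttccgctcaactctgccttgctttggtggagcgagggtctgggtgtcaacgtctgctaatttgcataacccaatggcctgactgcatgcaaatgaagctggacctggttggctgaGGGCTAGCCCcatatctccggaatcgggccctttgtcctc
Cdkn1a: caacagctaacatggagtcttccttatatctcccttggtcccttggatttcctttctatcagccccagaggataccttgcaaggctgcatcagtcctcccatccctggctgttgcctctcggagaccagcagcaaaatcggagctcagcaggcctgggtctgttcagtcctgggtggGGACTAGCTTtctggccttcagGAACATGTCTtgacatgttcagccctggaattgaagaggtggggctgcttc

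Windows of 300 bases, 250 before and 50 after a start, were searched on both strands. The E-box was at positions -185 to -180 of Gadd45b and -142 to -137 of Gadd45g, counted from the start site, and in 7.15% of all 32851 windows. It was not in the window of Gadd45a, Cdkn1a, Ccng1 or Mdm2. A match to a p53 response element, searched as a pair of decamers at most 13 bases apart, was at positions -73 to -42 of the upstream start of Cdkn1a. Such matches were in 0.0731% of all windows (24). The window of the downstream Cdkn1a start, at position 29093769 of chromosome 17, held no match to any motif searched. Single p53 decamers, which the response element contains as parts, were also in the windows of Gadd45a, Ccng1 and Mdm2 and in 8.36% of all windows. The FoxO core GTAAACA was in the window of Mdm2 and in 3.65% of all windows, and the cyclic AMP response element TGACGTCA was in none of the members' windows and in 1.79% of all. These are matches of letters, and no binding was measured. Promoters of Ccnd1, Myc and Trp53inp1 were not analysed here.

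After liraglutide Gadd45b rose by edgeR, a call that was lost when any library other than PBS158 was left out. Gadd45g and Cdkn1a had higher means without a call and, like Gadd45b, scattered widely between libraries. Mdm2 and Ccng1 stayed close to their PBS values. Of the 9 genes, 1 rose and none fell by the edgeR quasi-likelihood fit (Benjamini-Hochberg adjusted p below 0.05 over the 12626 tested genes). By the same fit 8.77% of all tested genes were called (4.08% higher and 4.69% lower). Of all called genes 46.5% were higher, and 57.2% when libraries were scaled by their totals. The count of 1 in 9 is near that background. DESeq2 called 2 of the 9, both higher (12.5% of the genes it tested). At an unadjusted p below 0.05 there were 4 members in edgeR (25.6% of all tested genes), Gadd45b, Gadd45g and Cdkn1a with higher means and Gadd45a with a lower one. The groups did not overlap for 3 members, Gadd45b, Gadd45g and Ccnd1, all higher under liraglutide, and for 31.3% of all tested genes (14.9% higher). The median log2 fold change of the members was 0.51, which is the value of Myc, beside 0.01 over all tested genes. Because the members were chosen with earlier results of these data known, this median is a description alone.

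**Figure D1:**
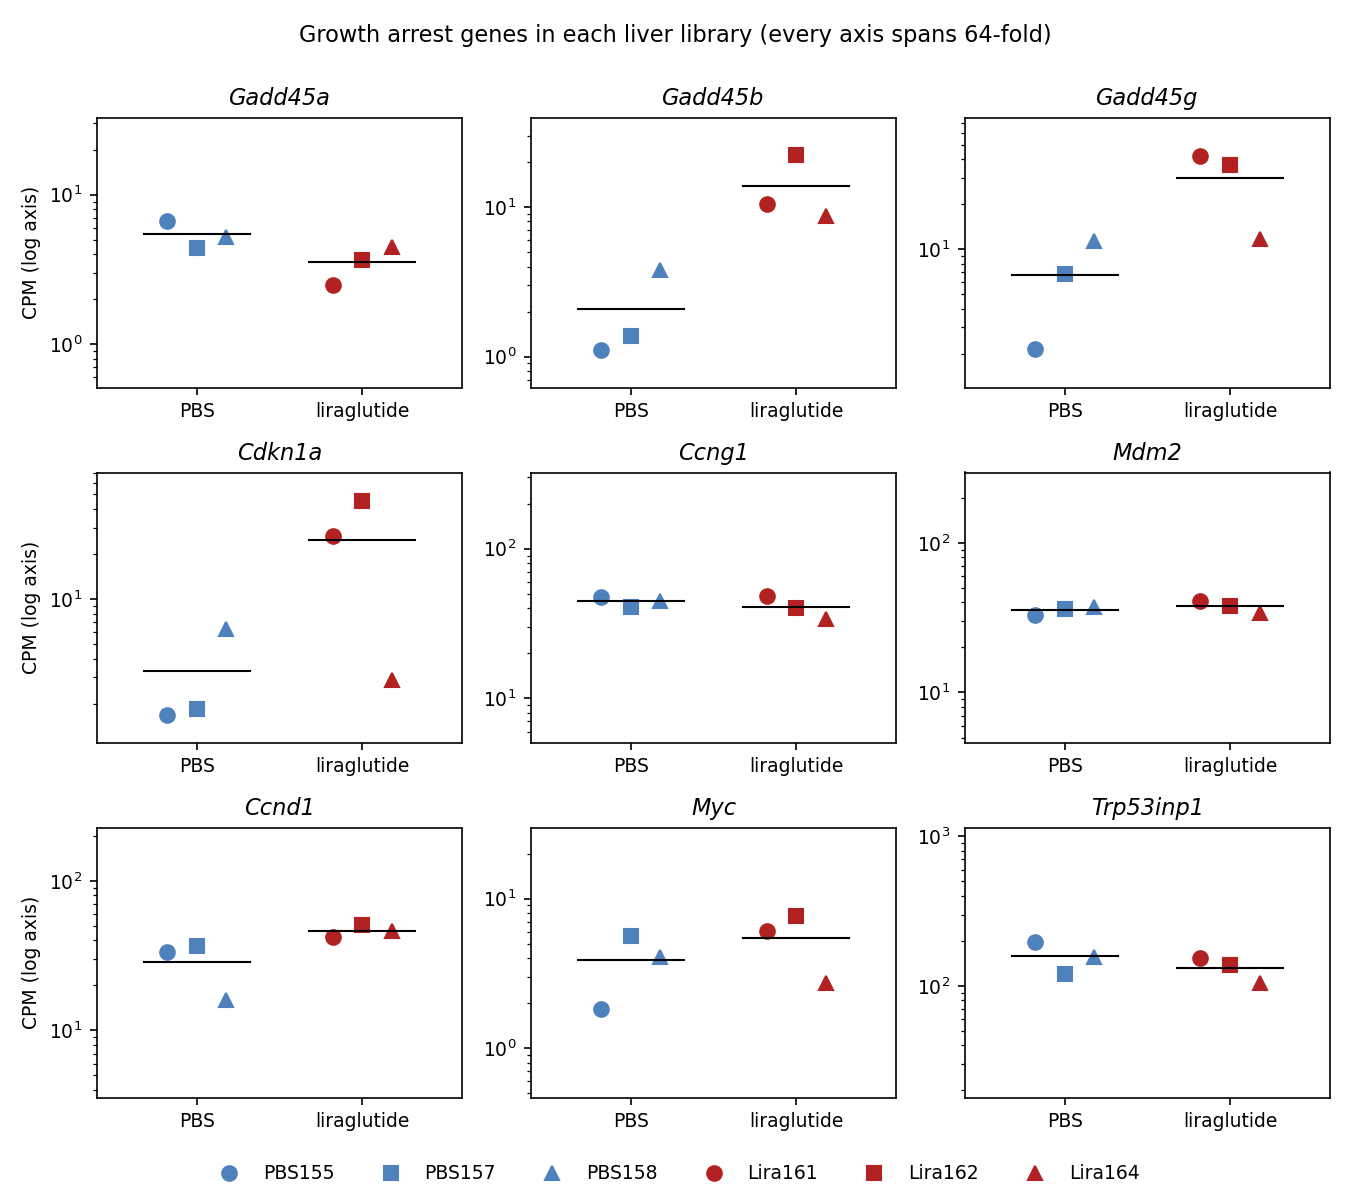
CPM (log axis) of the 9 genes in each library, PBS in blue and liraglutide in red, with a line at the mean of each group. Each axis spans the same fold range, so the tight points of Mdm2 (33.2 to 41.1 CPM) can be set against the scatter of Cdkn1a (1.69 to 45.6 CPM).

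Gadd45b (chromosome 10, 80930073 to 80932204, GRCm38) was at 10.4, 22.4 and 8.71 CPM in libraries Lira161, Lira162 and Lira164, and at 1.10, 1.37 and 3.79 CPM in PBS155, PBS157 and PBS158. CPM, the usual scaling of counts to library size, were computed here with TMM factors, and the raw counts behind these values were 216, 579 and 209 against 30, 32 and 79. All liraglutide libraries lay above all PBS libraries, with Lira162 highest and PBS158 nearest to the liraglutide group. The means were 13.8 ± 7.43 against 2.09 ± 1.48 CPM (SD, n = 3 per group). The edgeR fit gave a 6.79-fold rise (log2 fold change 2.76 ± 0.60, SE, 95% interval 1.29 to 4.24, edgeR adjusted p = 0.0467). DESeq2 gave an adjusted p of 0.00132. The edgeR call was kept without library PBS158 (log2 fold change 3.49, adjusted p = 0.0384) and was lost when any other library was left out, with adjusted p of 0.0887 (Lira161 left out), 0.0790 (Lira162), 0.0550 (Lira164), 0.120 (PBS155) and 0.157 (PBS157) and log2 fold changes from 2.21 to 3.00.

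Gadd45g (chromosome 13, 51846678 to 51848468) was at 41.8, 36.7 and 11.8 CPM in Lira161, Lira162 and Lira164 and at 2.16, 6.85 and 11.3 CPM in PBS155, PBS157 and PBS158. The groups did not overlap, but the lowest liraglutide library, Lira164, was only just above the highest PBS library, PBS158. The means were 30.1 ± 16.0 and 6.78 ± 4.58 CPM. The log2 fold change fitted by edgeR, 2.17 ± 0.76 (edgeR adjusted p = 0.159), did not pass the test, nor did it with DESeq2 (adjusted p = 0.0576). Its 95% interval ran from 0.23 to 4.11.

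Gadd45a (chromosome 6, 67035096 to 67037457), the DNA damage member after which the family is named, had lower values under liraglutide. It was at 2.51, 3.67 and 4.50 CPM in Lira161, Lira162 and Lira164 and at 6.71, 4.37 and 5.18 CPM in PBS155, PBS157 and PBS158. Only Lira164 lay within the PBS range. The log2 fold change was -0.60 ± 0.25 (95% interval -1.17 to -0.04, edgeR adjusted p = 0.170), and DESeq2 gave an adjusted p of 0.153.

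Exons of Gadd45a overlap those of E230016M11Rik, a gene on the opposite strand, by 337 bp, and without a stated strand setting reads in the overlap cannot be assigned. E230016M11Rik, named after its values were seen, had 13, 11 and 22 counts in Lira161, Lira162 and Lira164 and 56, 57 and 61 counts in PBS155, PBS157 and PBS158. It was lower under liraglutide (log2 fold change -1.91 ± 0.33, edgeR adjusted p = 0.0115), and the call was kept whichever library was left out (adjusted p up to 0.0467). Gadd45a itself had 52, 95 and 108 against 183, 102 and 108 counts, and how many of these were shared with the antisense gene was not tested.

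Levels of the family were set side by side per length of exon. Summed over the family there were 43.6, 47.4 and 18.1 CPM per kilobase in Lira161, Lira162 and Lira164 and 6.34, 9.18 and 15.0 in PBS155, PBS157 and PBS158. Gadd45a made up 3.26%, 4.39% and 14.1% of the family in the liraglutide libraries and 60.0%, 27.0% and 19.6% in the PBS libraries. Gadd45b made up 15.0%, 29.7% and 30.3% against 10.9%, 9.39% and 15.9%. Gadd45g was the largest part in every library except PBS155, where Gadd45a was.

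**Figure D2:**
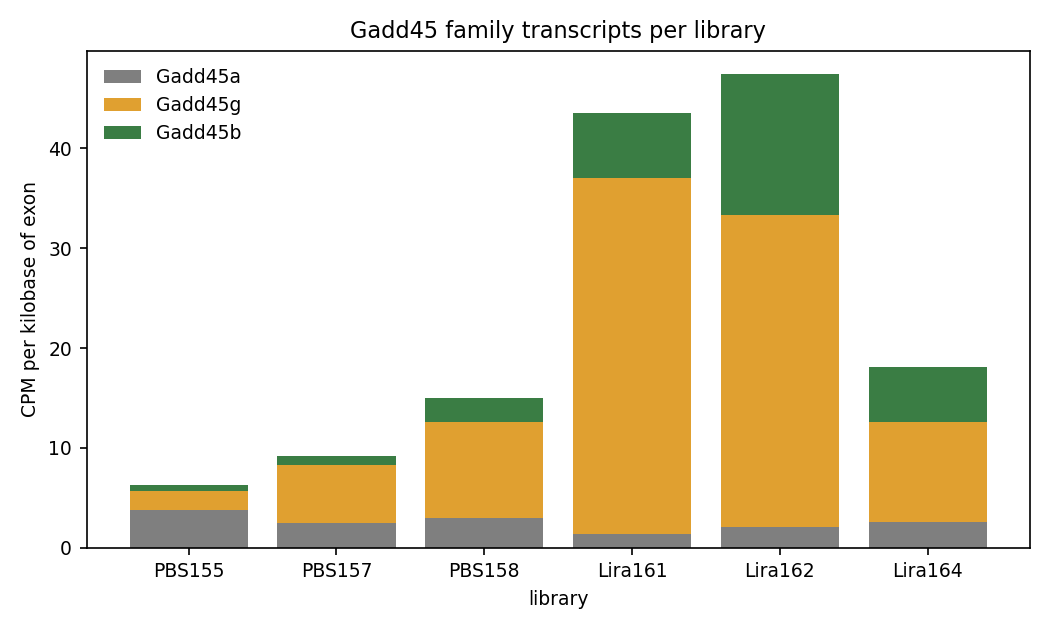
Stacked CPM per kilobase of exon of Gadd45a (grey), Gadd45g (yellow) and Gadd45b (green) in each library. Lira161 and Lira162 stand at 43.6 and 47.4, and Lira164 at 18.1 is closer to PBS158 at 15.0 than to the other liraglutide libraries.

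Ratios of 2 genes within a library do not depend on how libraries are scaled. The ratio of Gadd45b to Gadd45a was 2.04, 2.60 and 0.95 on the log2 scale in Lira161, Lira162 and Lira164 and -2.59, -1.66 and -0.45 in PBS155, PBS157 and PBS158, and Gadd45b had more counts than Gadd45a in all liraglutide libraries and fewer in all PBS libraries. The difference of the means was 3.43 (exact two-sided permutation test, p = 0.1, the smallest that 3 against 3 libraries allow, adjusted p = 0.25 over 5 ratios). The ratio of Gadd45g to Gadd45a also did not overlap between the groups, with a difference of 2.87 (exact permutation p = 0.1, adjusted p = 0.25). Gadd45b to Gadd45g overlapped, with a difference of 0.56 (exact permutation p = 0.4, adjusted p = 0.4). This design cannot reach a p below 0.1 for any of them.

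Cdkn1a (chromosome 17, 29090976 to 29100727) had the largest mean change of the 9 genes and the least even libraries. It was at 26.4, 45.6 and 2.87 CPM in Lira161, Lira162 and Lira164 and at 1.69, 1.84 and 6.34 CPM in PBS155, PBS157 and PBS158. Lira161 and Lira162 were above every PBS library, while Lira164 was within the PBS range. The means were 25.0 ± 21.4 and 3.29 ± 2.64 CPM. The log2 fold change fitted by edgeR, 2.96 ± 1.14 (7.76-fold, 95% interval 0.02 to 5.89), did not pass the test (edgeR adjusted p = 0.193, DESeq2 adjusted p = 0.0613). Without Lira164 the log2 fold change was 3.48 (adjusted p = 0.0668), and without Lira162 it was 2.16 (adjusted p = 0.429). Exons of Cdkn1a overlap a gene on the opposite strand, AC167363.2, by 273 bp, and counts of that gene were not analysed here.

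**Figure D3:**
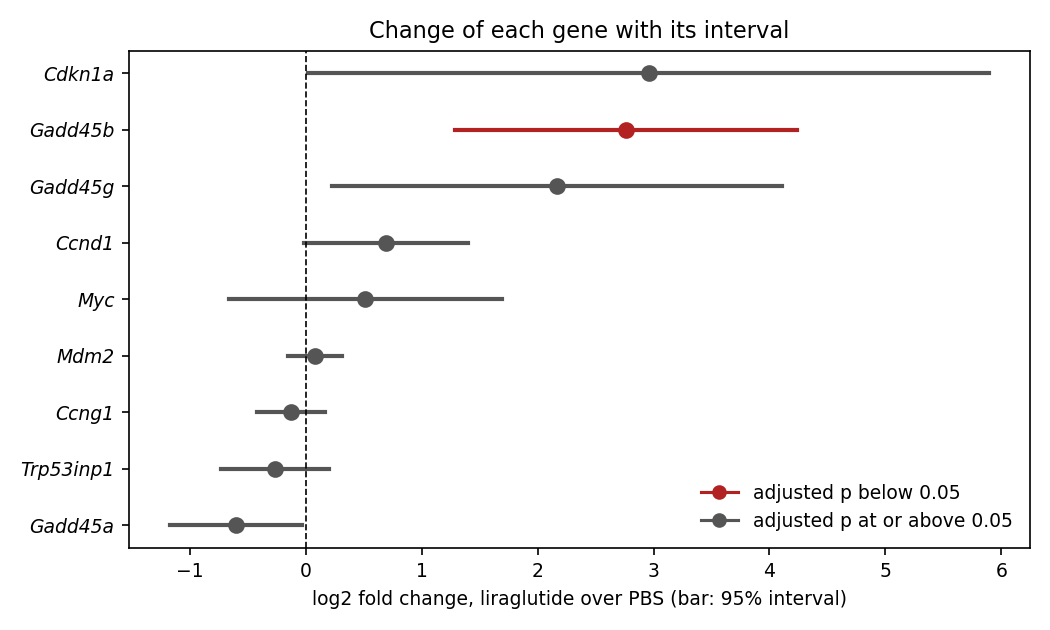
Log2 fold change of liraglutide over PBS for the 9 genes, with bars for the 95% interval of the edgeR fit and red for an adjusted p below 0.05. Gadd45b is the red gene at 2.76, while Cdkn1a at 2.96 has the widest bar and Mdm2 at 0.08 the narrowest.

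Mdm2 (chromosome 10, 117688875 to 117710758) differed little between any 2 libraries. It was at 41.1, 37.8 and 33.8 CPM in Lira161, Lira162 and Lira164 and at 33.2, 36.3 and 37.5 CPM in PBS155, PBS157 and PBS158, and the groups overlapped throughout. The log2 fold change was 0.08 ± 0.10 (edgeR adjusted p = 0.684), and its 95% interval ran from 0.897-fold to 1.24-fold. The log2 ratio of Cdkn1a to Mdm2 was -0.64, 0.27 and -3.55 in the liraglutide libraries and -4.29, -4.28 and -2.56 in the PBS libraries (difference 2.40, exact permutation p = 0.2, adjusted p = 0.25), with Lira164 below PBS158.

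Ccng1 (chromosome 11, 40748552 to 40755311), whose product cyclin G1 recruits the phosphatase PP2A to MDM2, was at 48.1, 40.4 and 34.0 CPM under liraglutide and at 47.6, 41.1 and 44.9 CPM under PBS. The libraries of both groups were mixed, and the log2 fold change was -0.13 ± 0.13 (95% interval -0.42 to 0.17, edgeR adjusted p = 0.586). Trp53inp1 (chromosome 4, 11156431 to 11174379), which codes for a p53-induced nuclear protein that also binds the LC3 proteins of autophagy, had the most counts of the 9 genes, between 2495 and 5383 per library. It was at 153, 137 and 104 CPM in Lira161, Lira162 and Lira164 and at 197, 121 and 156.96 CPM in PBS155, PBS157 and PBS158. The groups overlapped, with a log2 fold change of -0.27 ± 0.20 (95% interval -0.74 to 0.20, edgeR adjusted p = 0.447).

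Ccnd1 (chromosome 7, 144929931 to 144939925), the gene of cyclin D1, was at 42.2, 50.6 and 46.4 CPM in Lira161, Lira162 and Lira164 and at 33.7, 36.6 and 16.0 CPM in PBS155, PBS157 and PBS158. The groups did not overlap, and library PBS158 stood well below all others. The means of 46.4 ± 4.17 and 28.8 ± 11.2 CPM gave a log2 fold change of 0.69 ± 0.29 (95% interval -0.02 to 1.40), which did not pass in edgeR (adjusted p = 0.206) and passed in DESeq2 (adjusted p = 0.0457). Without PBS158 the edgeR log2 fold change was 0.40 (adjusted p = 0.108). Exons of Ccnd1 overlap those of Oraov1 (now Lto1) on the opposite strand by 1100 bp, and Oraov1 was at a mean of 16.1 against 11.9 CPM (log2 fold change 0.44 ± 0.12, edgeR adjusted p = 0.0567). The log2 ratio of Cdkn1a to Ccnd1 overlapped between the groups (difference 1.70, exact permutation p = 0.2, adjusted p = 0.25).

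Markers of other liver cells also differed between the libraries. Of stellate cell markers 9 of 9 tested had a higher mean under liraglutide and none was called by edgeR. An unadjusted edgeR p below 0.05 was found for 3 of them and for 25.6% of all tested genes. Stellate cell markers summed to between 504 and 549 CPM under liraglutide and between 290 and 460 CPM under PBS, with PBS158 lowest. Markers of sinusoidal endothelial cells had higher means in 8 of 8, of which 1 was called, and summed to between 203 and 320 CPM under liraglutide. Under PBS they summed to 225, 134 and 121 CPM in PBS155, PBS157 and PBS158, where Ccnd1 was at 33.7, 36.6 and 16.0 CPM. Genes of a list may move together, so these counts of markers are a description alone. Macrophage markers ranged from 213 to 340 CPM under liraglutide and from 92.9 to 366 CPM under PBS. None of the markers in these lists was at 0 in every library. In whole liver fewer cells of a type and less RNA per cell cannot be told apart, and the part of these cells in the values of Ccnd1 was not tested.

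Myc (chromosome 15, 61985391 to 61990374) was low in all libraries, at 6.08, 7.61 and 2.71 CPM in Lira161, Lira162 and Lira164 and at 1.83, 5.65 and 4.08 CPM in PBS155, PBS157 and PBS158. Each group held both low and high libraries, with between 50 and 197 counts each. The log2 fold change of 0.51 ± 0.50 had a 95% interval from -0.66 to 1.69 (edgeR adjusted p = 0.566).

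Evenness between libraries differed widely among the 9 genes. The biological coefficient of variation, the spread between libraries of a group beyond counting, was 0.846 for Cdkn1a, 0.610 for Gadd45g, 0.480 for Gadd45b and 0.412 for Myc, each above that of at least 98.3% of tested genes. It was 0.110 for Mdm2 and 0.130 for Ccng1, above 15.1% and 43.8% of tested genes. For Cdkn1a the SD was 85.7% of the mean under liraglutide, where counting alone would give 4.09%. Lira164 was the lowest liraglutide library for Gadd45b, Gadd45g, Cdkn1a, Myc, Mdm2, Ccng1 and Trp53inp1. PBS158 was the highest PBS library for Gadd45b, Gadd45g, Cdkn1a and Mdm2.

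**Figure D4:**
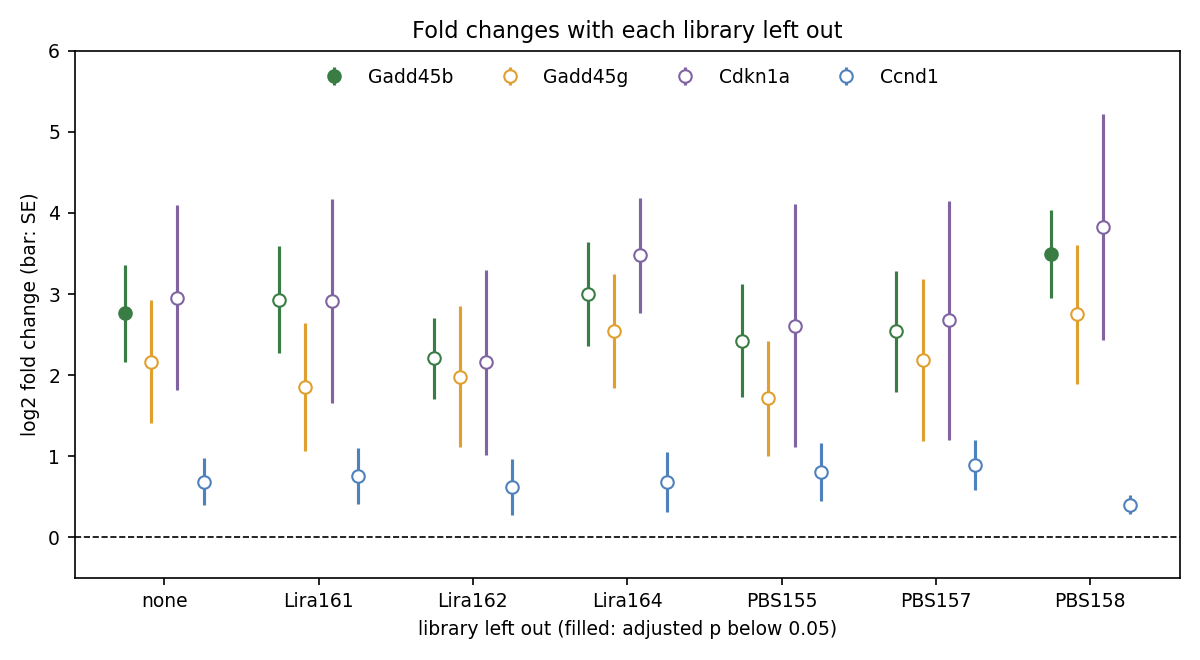
Log2 fold changes (bars: SE) of Gadd45b, Gadd45g, Cdkn1a and Ccnd1 with all libraries and with each library left out. Points are filled where the edgeR adjusted p was below 0.05, which held for Gadd45b with all libraries and without PBS158, and all values stay above 0.

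Per kilobase of exon the order of the genes under PBS was led by Trp53inp1 at 24.5 ± 5.89 CPM per kilobase, followed by Ccng1 at 12.7 ± 0.931 and Mdm2 at 7.02 ± 0.439. Ccnd1 at 6.11 ± 2.37 and Gadd45g at 5.78 ± 3.91 came next, and the library ranges of Mdm2, Ccnd1 and Gadd45g overlapped. Gadd45a was at 3.07 ± 0.673, and Myc at 1.42 ± 0.707, Gadd45b at 1.31 ± 0.933 and Cdkn1a at 0.925 ± 0.743 overlapped each other at the bottom. Under liraglutide Gadd45g at 25.6 ± 13.7 and Trp53inp1 at 20.3 ± 3.89 overlapped at the top. Below them Ccng1 at 11.6 ± 2.01, Ccnd1 at 9.85 ± 0.885, Gadd45b at 8.70 ± 4.68, Mdm2 at 7.40 ± 0.720 and Cdkn1a at 7.02 ± 6.02 followed with overlapping neighbours. Gadd45a at 2.02 ± 0.567 and Myc at 2.01 ± 0.922 had the lowest means, but in Lira164 Cdkn1a was below both at 0.809.

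Other genes of these pathways were read from 11 lists with 153 distinct tested genes, of which 15 were called by edgeR, 8 higher and 7 lower. That is 9.8% of them, near the 8.77% of all tested genes, so the counts of the single lists are given as a description. Of these 15 genes 5 (Gdf15, Map3k5, Mlxip, Mycl1 and Ldha) were called whichever library was left out, and the other 10 lost the call without at least 1 library. Among 22 tested p53 target genes, which respond to DNA damage and other stress, 1 rose and none fell in edgeR, with 8 at an unadjusted p below 0.05 and 4 called by DESeq2. The gene that rose was Gdf15, a secreted stress hormone that many other stress signals also induce, from 2.20 to 18.7 CPM (log2 fold change 3.09 ± 0.39, edgeR adjusted p = 0.00757). It was at 20.1, 26.3 and 9.62 CPM in Lira161, Lira162 and Lira164 and between 1.98 and 2.45 CPM in the PBS libraries. The median log2 fold change of the list was 0.17. Among 17 tested genes of p53 and its regulators, Mdm4, an inhibitor of p53 related to Mdm2, fell from 32.9 to 25.4 CPM (-0.37 ± 0.10, edgeR adjusted p = 0.0430) and none rose. The call of Mdm4 was lost whichever library was left out (adjusted p from 0.0572 to 0.143) and when libraries were scaled by totals or upper quartiles. Trp53 itself, at 18.3 against 17.8 CPM, had an edgeR adjusted p of 0.843.

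**Figure D5:**
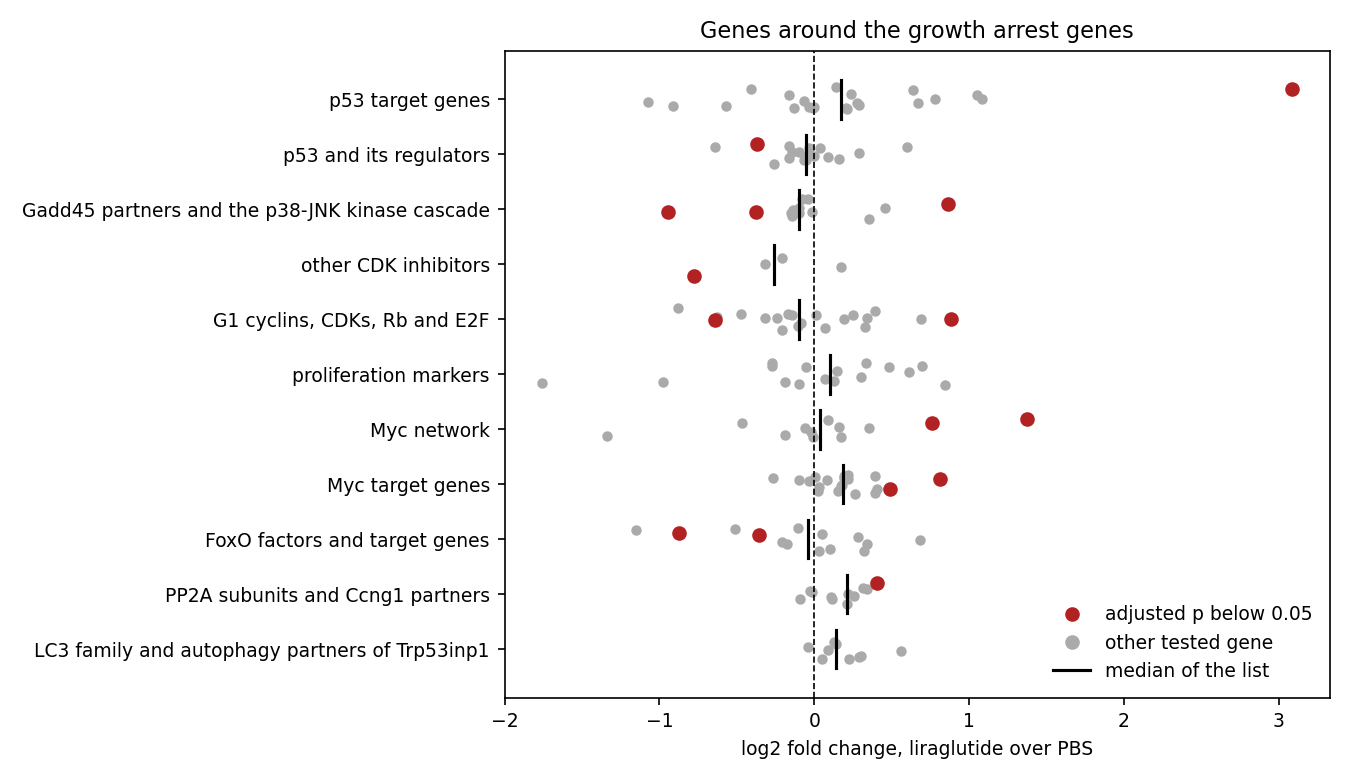
Log2 fold change of each tested gene of the 11 pathway lists, red where the edgeR adjusted p was below 0.05, with a line at the median of each list. Gdf15 at 3.09 is the point farthest to the right, and list medians lie between -0.26 and 0.21.

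Of 13 tested Gadd45 partners and kinases of the p38-JNK cascade, 1 rose and 2 fell. Map3k5, the stress-activated kinase ASK1, rose from 43.8 to 79.7 CPM (log2 fold change 0.86 ± 0.09, edgeR adjusted p = 0.00298). Map2k3 and Map2k6, which phosphorylate p38, fell by 0.38 and 0.94 on the log2 scale (edgeR adjusted p = 0.0290 and 0.0192). Both calls were lost without Lira161, Lira162 or PBS158, and that of Map2k3 also without PBS155 or PBS157 (adjusted p up to 0.103 for Map2k3 and 0.0777 for Map2k6). Map3k4, the kinase that Gadd45 proteins bind, was at 20.1 against 22.2 CPM (edgeR adjusted p = 0.491). Over the 13 genes the median log2 fold change was -0.10.

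Cell cycle genes were read from 3 of the lists. Of 4 tested other CDK inhibitors, Cdkn2c (p18) fell from 5.25 to 3.05 CPM (log2 fold change -0.78 ± 0.21, edgeR adjusted p = 0.0472). This call was kept without PBS155 alone of the 6 libraries (adjusted p up to 0.167), and it was lost with library totals, upper quartile factors and limma-voom. With a filter at a mean CPM of 5 Cdkn2c was not tested. Of 20 tested G1 cyclins, CDKs, Rb and E2F genes, the repressor E2f8 rose by 0.88 ± 0.20 and Tfdp2, a partner of E2F factors, fell by 0.64 ± 0.14 (edgeR adjusted p = 0.0267 and 0.0231). Both lost the call without Lira161, Lira162 or PBS158, and E2f8 also without PBS155 (adjusted p up to 0.0743 for E2f8 and 0.0877 for Tfdp2). Of 16 tested proliferation markers none was called by edgeR, 6 had an unadjusted p below 0.05, and DESeq2 and limma-voom called 2 and 1. The most abundant of them were Pcna, a Gadd45 partner, at 23.7 against 25.3 CPM, and Tk1, a thymidine kinase, at 7.69 against 26.0 CPM (log2 fold change -1.76 ± 0.46, edgeR adjusted p = 0.0772). Mki67, the usual marker of dividing cells, was at 0.978 against 1.18 CPM.

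In the Myc network 2 of 12 tested genes rose and none fell. Mycl1, a relative of Myc, rose from 7.55 to 19.6 CPM (log2 fold change 1.37 ± 0.17, edgeR adjusted p = 0.00399), and Mlxip, which pairs with Mlx in sugar sensing, rose by 0.76 ± 0.12 (adjusted p = 0.00756). Among 20 tested Myc target genes Ldha, the lactate dehydrogenase gene, and Nop2, a gene of ribosomal RNA methylation, rose by 0.81 ± 0.15 and 0.49 ± 0.12 (edgeR adjusted p = 0.0127 and 0.0368), and none fell. Nop2 kept its call without Lira164 alone of the 6 libraries (adjusted p up to 0.163). The medians of these lists were 0.04 and 0.19.

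Of 14 tested FoxO factors and their targets, Cited2, a transcription cofactor, and Sod2, the mitochondrial superoxide dismutase gene, fell by 0.87 and 0.36 on the log2 scale (edgeR adjusted p = 0.0169 and 0.0420), and none rose. The call of Cited2 was lost without Lira161 or PBS158 (adjusted p up to 0.0554), and that of Sod2 was kept without Lira164 alone (adjusted p up to 0.159). Among 11 PP2A subunits and partners of cyclin G1, the regulatory subunit gene Ppp2r5c rose by 0.40 ± 0.09 (edgeR adjusted p = 0.0276), a call kept without Lira164 alone of the 6 libraries (adjusted p up to 0.0977). Of 9 tested LC3 family genes and autophagy partners of Trp53inp1 none was called by edgeR, with 2 at an unadjusted p below 0.05 and 1 called by DESeq2. The most abundant were Sqstm1, an autophagy receptor gene, at 652 against 442 CPM (edgeR adjusted p = 0.0512), and Gabarapl1 at 486 against 499 CPM.

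Genes most like a member in pattern were ranked by Pearson's r of log2 CPM over the 6 libraries among 9257 genes. Closest to Gadd45b were Vamp1 (r = 0.996), Pcbp1 (0.994) and Dbnl (0.994), and closest to Gadd45g were Eme2 (0.994), St3gal5 (0.990) and Rabgef1 (0.990). Closest to Cdkn1a were Vps16 (0.993), Dctn3 (0.986) and Snhg3 (0.986). The points share the 2 treatment groups and each library's depth and scaling, and with 6 points and so many genes such values are a description alone.

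Total counts lay between 20888991 and 27007182 per library. Pairs of libraries within a group differed by more than counting noise, with a chi-square per degree of freedom between 31.0 and 61.3. The hepatocyte marker Alb was at 41037 to 76534 CPM, while Ass1, another hepatocyte gene, had at most 4 counts in any library. The erythroid genes Hbb-b1, Hba-a1 and Hba-a2 were at 0 in every library, and summed erythroid markers were at 44.9 to 104 CPM under liraglutide against 157.4 to 171 under PBS. Summed cholangiocyte markers were at 27.0 to 29.0 against 42.2 to 51.2 CPM. Most of that difference was Spp1, the only called gene of that list (20.5 against 36.3 CPM, edgeR adjusted p = 0.00508), while Krt19, Krt7, Epcam and Cldn7 had means of at most 1.61 CPM. The part of these cells in the members' values was not tested.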

How the data were processed

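Transcripts of 6 mouse liver libraries were analysed. The authors deposited raw counts, whole and not normalised, for each gene symbol in a single table. Per the submitters' processing notes STAR and the build mm10 were used, while for the counting tool, annotation, strand setting and versions nothing is given in the sources used here. Columns were assigned to the groups of their names, and the numbers in them match no triplicate number of the labels. The treatment label of the control samples is PBS, although the protocol text shared by all samples names liraglutide alone.

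Genes were filtered with filterByExpr, scaled by TMM and tested by group alone, with glmQLFit (robust) and glmQLFTest of edgeR 4.0.16 under R 4.3.3. P-values were adjusted by Benjamini-Hochberg over 12626 genes, with a threshold of 0.05. The SE is the log2 fold change divided by the square root of F, and 95% intervals use the fit's total degrees of freedom. CPM per kilobase use the union of exons in GENCODE M21 (GRCm38). Ratios used a prior count of 0.5 and patterns log2 CPM with a prior count of 2. Alternatives were DESeq2 1.42.0, limma 3.58.1 (voom), other scalings and filters, and each library left out in turn. The edgeR fit was also run on simulated counts, and no result of that run is given here.

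The 9 genes and the lists were chosen with earlier results of these data known. The naming rule takes all 9 members, all called genes of a list where 5 or fewer were called (otherwise the 3 with the smallest p), the 2 most abundant where none was called, and the 3 genes most like a member in pattern; Trp53, Map3k4 and Mki67 were added after their values were seen. Older symbols had to be used for 5 of the listed genes. Promoters came from RefSeq (GRCm38.p6), which held 6 of the 9 genes.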

Additional observations from a re-analysis of the deposited data

How the results depend on the processing

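The direction of all 9 members held under every alternative run. Besides all libraries, Gadd45b passed the threshold in 6 of 8 other settings and lost it without a low-count filter (adjusted p = 0.111) and without the 10 most abundant genes (0.0511). The count of called members was therefore 0 in both, and it was 2 with DESeq2, which added Ccnd1 (log2 fold change 0.69). Leaving out 1 library gave 0 to 1. Gadd45a and Myc were not tested with a filter at a mean CPM of 5. Over all genes leaving out 1 library gave 393 to 1496 changed genes against 1107, with 1.27% to 5.42% of tested genes higher and 1.82% to 6.27% lower; the fewest were called without Lira162.

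List counts moved as follows. With DESeq2 they were 4 for p53 targets, 2 for proliferation markers, 4 for the Myc network and 1 for the LC3 list. With library totals they were 0 for p53 regulators, 0 for other CDK inhibitors, 1 for FoxO genes and 1 for the LC3 list, while FoxO genes had 3 with DESeq2, limma-voom, upper quartile factors, a filter at 5 CPM and without the 10 most abundant genes (2 with the settings of the report). With upper quartile factors there were 0, 0 and 1 for p53 regulators, CDK inhibitors and the LC3 list. Without a filter p53 targets had 2 and the LC3 list 1. With a filter at 5 CPM, where Cdkn2c was not tested, CDK inhibitors had 0 and the LC3 list 1. With limma-voom CDK inhibitors had 0 and proliferation markers 1. The Myc network had 3 with limma-voom, without a filter and without the 10 most abundant genes (2 with the settings of the report). Leaving out 1 library gave 1 to 2 for p53 targets, 0 to 0 for p53 regulators, 1 to 3 for Gadd45 partners, 0 to 1 for CDK inhibitors, 0 to 2 for G1 genes, 0 to 1 for proliferation markers, 2 to 4 for the Myc network, 1 to 3 for Myc targets, 0 to 3 for FoxO genes, 0 to 1 for PP2A genes and 0 to 1 for the LC3 list. With few called genes per list these counts rest on single genes, and the cause of each move was not tested.

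All 5 ratios kept their direction with prior counts of 2 and 5 and with each library left out, from 2.92 to 3.99 for Gadd45b to Gadd45a, 2.03 to 3.63 for Gadd45g to Gadd45a and 0.22 to 1.04 for Gadd45b to Gadd45g, 1.62 to 3.53 for Cdkn1a to Mdm2 and 0.97 to 2.90 for Cdkn1a to Ccnd1. No paired analysis was possible because the columns of the count table carry no triplicate number of the labels. For Gadd45b under PBS the CV between libraries was 71.0%, where counting alone would give 14.6%. For Myc it was 45.9% under liraglutide and 49.8% under PBS, where counting would give 8.79% and 10.6%. The part of sequencing depth in the calls was not tested.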
